A study of Mus musculus with 4 samples.

Results

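Integrins and laminins were described gene by gene in a ribosome profiling (Ribo-seq) experiment on primary mouse myoblasts. The members were the protein-coding genes named as integrin alpha or beta chains or as laminin alpha, beta or gamma chains. There were 37 of them, 26 integrin and 11 laminin genes, among 21900 protein-coding genes and 55573 genes in the table. Ribo-seq sequences the mRNA pieces that ribosomes shield from nuclease, so its level reflects ribosomes on an mRNA.

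The study asked which mRNAs need the translation factor eIF5A in muscle cells, and profiled 2 WT libraries and 2 libraries labelled eIF5A knockout (KO). Cells came from hind-limb muscle of 3-week-old mice by enzyme digestion and filtration, with no cell sort described, and were grown with serum and 10 µg/ml FGF to day 2 of proliferation. By the study's account, KO mice carried eIF5A f/f with Pax7CreERT2/+ and were induced with tamoxifen, WT animals were littermates, and elsewhere in the study the WT animals were Pax7CreERT2/+ in one place and Pax7+/+;eIF5A f/f in another. Pax7 drives Cre in muscle stem cells, so other cell types of the digest would keep the gene. All libraries had cycloheximide at 100 µg/ml, for 10 min per the labels and 1 min per the design text. The labels do not say that libraries came from separate animals or cultures, so p-values measure the spread between these libraries, which may be technical.

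Integrins are cell surface receptors made of 1 alpha and 1 beta chain that tie the cytoskeleton to the matrix around the cell. Laminins are matrix proteins made of 1 alpha, 1 beta and 1 gamma chain, and they form the scaffold of the basement membrane that wraps each myofibre and its stem cells. In muscle the laminin with the alpha chain Lama2 is held by dystroglycan and by the integrin of Itga7 and Itgb1, and loss of either alpha chain is a known cause of muscular dystrophy or myopathy.

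The libraries held 642429 to 704006 gene-assigned reads each, of which protein-coding genes took 41.5% and 33.9% in WT replicates 1 and 2 and 65.4% and 59.2% in those labelled KO. MicroRNA genes took 16.8% in WT replicate 2 and 2.31% to 4.30% in the other 3 libraries. Eif5a, the targeted gene, had an RPKM of 34.9 and 65.2 in WT and of 60.3 and 59.4 in the KO-labelled libraries. The groups overlapped in it, so the level of Eif5a does not check the labels. Of 8 myogenic markers, which define the labelled cell type, all were detected and 6 were lower without overlap between the groups (Pax7, Myf5, Myod1, Myog, Des and Chrna1), a pattern of 20.3% of all genes, while Vcam1 was higher without overlap. Myf5 passed the limit on low levels (a mean RPKM of at least 1) only through the WT libraries. Their summed RPKM was 322 and 199 in WT and 88.8 and 125 in the KO-labelled libraries. All 10 endothelial markers were also detected (summed RPKM 247 and 353 in WT, 373 and 437 in the KO-labelled libraries), as were all 8 fibroblast markers (472 and 290 in WT, 772 and 347 in the KO-labelled libraries). Epithelial markers were near 0, with 5 of 6 at 0 reads and 1 read in all for Cdh1. How far the make-up of the cultures bears on the chains was not tested, and in such bulk libraries fewer cells of a type and less RNA per cell cannot be told apart.

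Of the 37 chains, 20 had at least 40 reads over the 4 libraries, 14 had 1 to 30 reads, and 3 (Itgam, Itgad and Itgb6) had no read, which allows up to 3 reads in each library. The difference between the groups was tested for the 23 chains with a mean RPKM of at least 1, and the remaining 14 chains lay under that limit. RPKM here is reads per kilobase of exon, scaled by the authors with median-of-ratios size factors rather than to total reads, so levels of different genes are compared per length of exon, untranslated parts included. By mean RPKM the order was led by Lama1, Itgb1, Lamc1, Itga5, Lamb1 and Lamb2, followed by Itgav, Itga7, Itgb3, Itgb5, Lama4, Lama5 and Itga2. Per kilobase of coding sequence, on which footprints mostly fall, Itgav moved up to rank 4, just above Itga5, and Lamb2 down to rank 10. The plot of levels gives the 20 best covered chains.

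**Figure D1:**
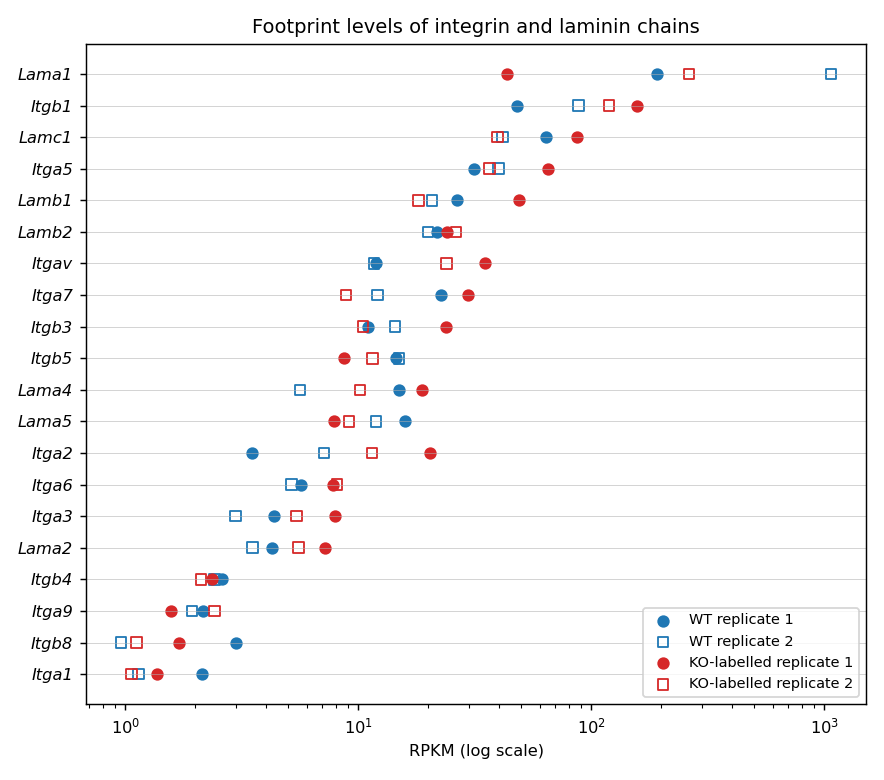
Footprint level (RPKM, log axis) of the 20 chains with at least 40 reads, 1 row a chain, ordered by mean level. Circles are replicate 1 and squares replicate 2, blue for WT and red for the KO-labelled libraries. Lama1 spans the widest range, from 43.5 to 1068, while Lamb2 lies between 19.9 and 26.3 in every library.

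Proline runs are printed for 5 of the tested chains that hold one, because eIF5A is known for helping ribosomes through stretches of consecutive prolines. Each line gives the coding strand of a run of at least 3 prolines with 15 bases on either side, from the longest coding sequence of the gene in GENCODE vM21 (GRCm38), and the proline codons are in capitals. Itga3, Lama2, Lama4 and Lama5 hold 1 run each. Itgb4 holds 2 runs, of 4 and of 3 prolines. All windows lie in coding exons.
Itga3, residues 1045 to 1047 of 1068, chr11:95045659-95045697, minus strand: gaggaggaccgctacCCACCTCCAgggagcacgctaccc
Itgb4, residues 1122 to 1125 of 1818, chr11:115999824-115999865, plus strand: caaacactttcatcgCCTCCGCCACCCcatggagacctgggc
Itgb4, residues 1151 to 1153 of 1818, chr11:115999911-115999949, plus strand: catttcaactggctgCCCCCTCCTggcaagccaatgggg
Lama2, residues 583 to 585 of 3118, chr10:27324581-27324619, minus strand: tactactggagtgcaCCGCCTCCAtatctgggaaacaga
Lama4, residues 860 to 862 of 1816, chr10:39072805-39072843, plus strand: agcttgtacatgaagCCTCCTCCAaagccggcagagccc
Lama5, residues 1753 to 1755 of 3718, chr2:180190181-180190219, minus strand: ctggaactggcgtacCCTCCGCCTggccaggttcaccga
The run lies near the end of the Itga3 protein and within the body of the others.

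No integrin or laminin chain passed the test between WT and the KO-labelled libraries. By limma, 0 of 23 tested chains had an adjusted p-value under 0.05, where 12 of all 11363 genes tested (0.106%) did, and voom, the other tool run, gave 0 chains as well. At an unadjusted p-value under 0.05, 2 chains were higher in the KO-labelled libraries (Itgav and Itga2), against 2.86% of all genes, and 0 were lower, against 4.46% of all genes. Both KO-labelled libraries exceeded both WT libraries for 8 chains (Itgb1, Itgav, Itga2, Itga3, Itga6, Itgb2, Lama2 and Lamb2), a pattern that 20.1% of all genes had. The opposite order held for Itgb5, Itgb4 and Lama5, 3 chains, and for 20.3% of all genes. The fitted log2 difference was above 0 for 14 of 23 chains and for 50.0% of all genes. Its median was 0.31 for the chains (0.39 for 16 integrins and 0.26 for 7 laminins) and 0.00 for all genes. With no limit on low levels it was 0.17 over 34 chains. The median of the 23 chains ranged from 0.049 to 0.75 when a library was left out. These counts cover the chains that passed the limit on low levels, which is not the whole family. Itgb2 and Itgb7 passed it only through their level in the KO-labelled libraries. Among the 20 chains with at least 40 reads, which hold neither, 7 were higher without overlap, 3 lower, and 12 had a log2 difference above 0, with a median of 0.29.

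**Figure D2:**
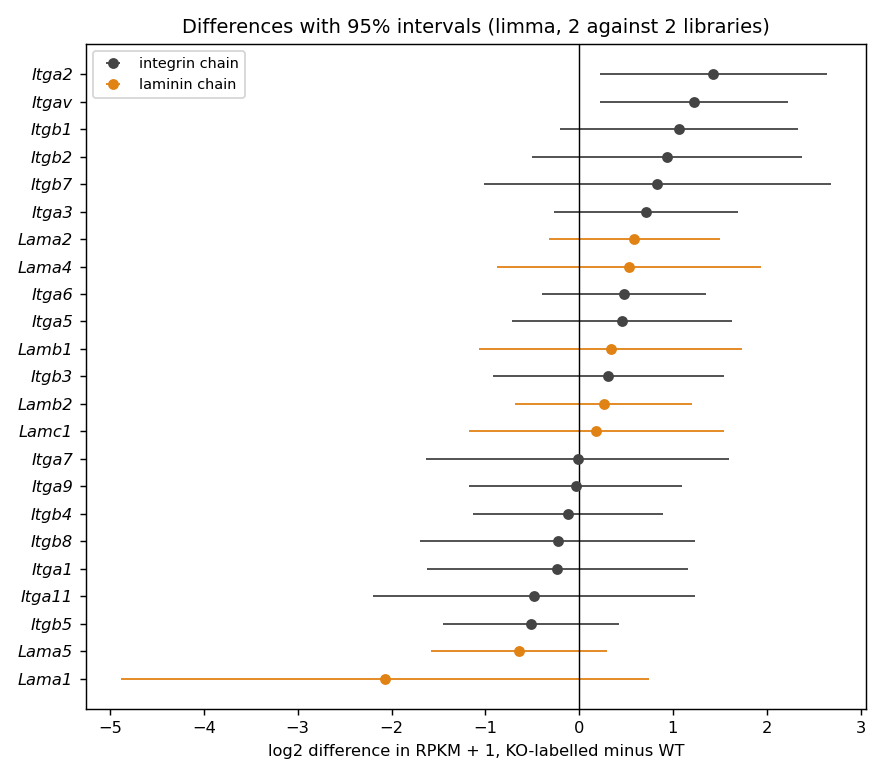
Log2 difference in RPKM + 1, the KO-labelled libraries minus WT, for the 23 tested chains, with 95% intervals from limma (2 against 2 libraries). Only the intervals of Itga2 (0.22 to 2.64) and Itgav (0.23 to 2.22) lie above 0 throughout, neither passed after adjustment over all genes, and that of Lama1 is the widest.

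Itga7, the alpha chain of the laminin receptor of skeletal muscle (ENSMUSG00000025348, GRCm38 chr10:128933818-128958282, plus strand), had an RPKM of 22.8 and 12.1 in WT and of 29.7 and 8.87 in the KO-labelled libraries, from 111, 46, 218 and 58 reads. The highest and the lowest value both belonged to KO-labelled libraries, so the WT values lay between them. The means were 17.4 ± 7.56 in WT and 19.3 ± 14.7 in the KO-labelled libraries (SD, n = 2). On the log2 scale the difference was -0.02 ± 0.66 (SE; 95% interval -1.63 to 1.60; adjusted p-value 0.995 by limma). That interval spans both a large fall and a large rise, and the sign turned in several alternatives. The difference was 0.56 with libraries scaled to their total reads, where the median of all genes was 0.47. It was 0.80 without KO replicate 2 and 0.41 without WT replicate 1. Within replicate numbers, the KO-labelled library was above WT in replicate 1 and below it in replicate 2.

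Lama2, the alpha chain of the main laminin of adult muscle (ENSMUSG00000019899, chr10:26980036-27619758, minus strand), was far lower in level than the other chains of its trimer, with RPKM of 4.26 and 3.51 in WT and 7.22 and 5.53 in the KO-labelled libraries. Both KO-labelled libraries lay above both WT libraries. The reads behind these values were 42 and 27 in WT and 107 and 73 in the KO-labelled libraries. Means of 3.89 ± 0.535 and 6.38 ± 1.19 (SD, n = 2) gave a 1.64-fold ratio and a log2 difference of 0.59 ± 0.37 (SE; 95% interval -0.32 to 1.497; adjusted p-value 0.697 by limma). The sign held when each library was left out, with 0.42 to 0.75 on the log2 scale. Both muscle chains were highest in KO replicate 1, and both had replicate 1 above replicate 2 in each group. The groups separated in Lama2 and overlapped in Itga7, and the difference between the chains was not tested. Exons of Lama2 share 631 bases with Gm48084, and those of Itga7 share 9 bases with Mettl7b, both on the opposite strand, and whether reads were counted by strand is not given in the sources used here.

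Among the 8 chains used as the ubiquitous group, which are made by most adherent cells, Itgav had the largest fitted difference. Itgav, the alpha chain shared by the vitronectin receptors (ENSMUSG00000027087, chr2:83724397-83806916, plus strand), had an RPKM of 11.9 and 11.7 in WT and of 34.9 and 23.9 in the KO-labelled libraries. The WT libraries lay close together and below both others. Its means were 11.8 ± 0.164 and 29.4 ± 7.80 (SD, n = 2), 2.50 times as high in the KO-labelled libraries. Its log2 difference was 1.23 ± 0.41 (SE; 95% interval 0.23 to 2.22), with a p-value of 0.024 by limma before adjustment and 0.665 after. Leaving out any of WT replicate 1, WT replicate 2 or KO replicate 1 took the unadjusted p-value above 0.05, to 0.074, 0.074 and 0.097. Exons of Itgav share 634 bases with Gm13684 on the other strand.

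Itgb1, the beta chain that pairs with most alpha chains present here, including Itga5 and Itga7 (ENSMUSG00000025809, chr8:128685654-128733200, plus strand), was the most abundant integrin. Its RPKM was 48.0 and 87.9 in WT and 158 and 119 in the KO-labelled libraries. The groups did not overlap, and WT replicate 1 was the lowest by a wide margin. The means were 67.9 ± 28.2 and 138 ± 27.1 (SD, n = 2), a 2.04-fold ratio, and the log2 difference was 1.07 ± 0.51 (SE; 95% interval -0.20 to 2.33; adjusted p-value 0.676 by limma). Without WT replicate 1 the difference was 0.63.

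Itga5, the alpha chain of the fibronectin receptor, had an RPKM of 31.3 and 40.02 in WT and of 65.3 and 36.6 in the KO-labelled libraries. KO replicate 1 was the highest, and KO replicate 2 lay between the WT libraries. Its log2 difference of 0.46 became 0.049 without KO replicate 1 and 0.86 without KO replicate 2. Itga3, another alpha chain for laminins, was low, at 4.36 and 2.97 in WT and 7.92 and 5.42 in the KO-labelled libraries. Its groups did not overlap, although the values rest on 8 to 41 reads. Itgb5, a beta partner of Itgav, went the other way, with 14.5 and 14.9 in WT and 8.69 and 11.5 in the KO-labelled libraries. Its log2 difference of -0.51 (adjusted p-value 0.710 by limma) became 0.05 when libraries were scaled to their total reads. In that setting the median of all genes was 0.47.

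Of the ubiquitous laminin chains Lamc1, Lamb1 and Lamb2, the groups overlapped in Lamc1 and Lamb1. Lamc1, the gamma chain of nearly all laminin trimers, had an RPKM of 63.8 and 41.6 in WT and of 86.8 and 39.5 in the KO-labelled libraries. Lamb1, a beta chain of embryonic and vascular laminins, had 26.6 and 20.8 in WT and 49.1 and 18.1 in the KO-labelled libraries. In both genes KO replicate 1 was the highest library and KO replicate 2 the lowest, so the groups overlapped entirely, and the log2 differences of 0.18 (95% interval -1.18 to 1.54) and 0.34 (-1.06 to 1.74) turned to -0.37 and -0.36 without KO replicate 1. Lamb2, the beta chain of the synaptic basement membrane, had the smallest ratio of highest to lowest library among chains with at least 100 reads, with an RPKM of 21.8 and 19.9 in WT and 24.1 and 26.3 in the KO-labelled libraries. Its log2 difference was 0.26 (95% interval -0.68 to 1.21, adjusted p-value 0.834 by limma). Over the 8 ubiquitous chains, 7 had a log2 difference above 0 and the median was 0.40.

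Of the 3 chains used as the endothelial group, 0 were higher without overlap, beside 20.1% of all genes, and 1, Lama5, was lower, beside 20.3%. Lama5, an alpha chain of mature vessel walls and epithelia (chr2:180176373-180225859, minus strand), had an RPKM of 15.9 and 11.9 in WT and of 7.84 and 9.13 in the KO-labelled libraries. Both KO-labelled libraries lay below both WT libraries. The means were 13.9 ± 2.79 and 8.49 ± 0.912 (SD, n = 2), with a log2 difference of -0.64 ± 0.38 (SE; 95% interval -1.58 to 0.30; adjusted p-value 0.697 by limma). That difference was -0.082 with libraries scaled to their total reads, where the median of all genes was 0.47, and -0.13 with the trend on GC content and coding length removed.

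Lama4, the alpha chain of vessel and peripheral nerve laminins (chr10:38965515-39110188, plus strand), had an RPKM of 15.0 and 5.63 in WT and of 18.8 and 10.2 in the KO-labelled libraries. The spread within each group was larger than the gap between their means. Itgb3, the beta chain that joins Itgav in the vitronectin receptor of platelets, osteoclasts and growing vessels, had 11.0 and 14.4 in WT and 23.7 and 10.5 in the KO-labelled libraries. It was high in KO replicate 1 alone, and its log2 difference of 0.31 (adjusted p-value 0.848 by limma) became -0.24 without that library. The 10 endothelial markers had a median log2 difference of 0.48, and 9 of them were above 0, so the Lama5 value had the opposite sign to most of that list. Markers of the other cell types had median differences of 0.37 for fibroblasts, -0.36 for immune cells, -0.09 for mural cells, -0.02 for Schwann cells and -1.43 for myogenic cells.

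Among the other integrin chains, Itga2, an alpha chain of collagen receptors (ENSMUSG00000015533, chr13:114833081-114932100, minus strand), had the largest fitted increase of the 23 chains. It had an RPKM of 3.49 and 7.14 in WT and of 20.2 and 11.5 in the KO-labelled libraries, from 15, 24, 131 and 66 reads. The groups did not overlap. The means of 5.31 ± 2.58 and 15.9 ± 6.22 (SD, n = 2) differed 2.98-fold, and the log2 difference was 1.43 ± 0.49 (SE; 95% interval 0.22 to 2.64), with a p-value of 0.0278 by limma before adjustment and 0.668 after. Leaving out any 1 library took the unadjusted p-value to between 0.062 and 0.232.

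Itga6, an alpha chain for laminins that pairs with Itgb1 or Itgb4, had an RPKM of 5.70 and 5.17 in WT and of 7.82 and 8.09 in the KO-labelled libraries. The replicates of each group were close and the groups did not overlap, with a log2 difference of 0.48 and an adjusted p-value of 0.710 by limma. Itgb4, its partner in epithelial hemidesmosomes, lay at 2.60 and 2.42 in WT and 2.36 and 2.12 in the KO-labelled libraries, on 8 to 15 reads a library. Itga9, a tenascin receptor chain, had 2.16 and 1.93 in WT and 1.58 and 2.41 in the KO-labelled libraries, and these ranges overlapped. Itga1, the other collagen receptor chain with over 40 reads, had 2.14 and 1.14 in WT and 1.36 and 1.07 in the KO-labelled libraries, and Itgb8, a partner of Itgav in activating TGF-beta, had 3.00 and 0.960 in WT and 1.69 and 1.12 in the KO-labelled libraries. In both genes WT replicate 1 was the highest library and the groups overlapped.

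Of 7 chains of leukocyte integrins, Itgam and Itgad had no read, Itgal, Itgae and Itgax had 1 to 5 reads in all, and Itgb2 and Itgb7 had 13 each. Itgb2, the beta chain shared by many leukocyte integrins, had 1 read in each WT library and 5 and 6 in those labelled KO, and Itgb7 had 3, 0, 7 and 3. The epithelial laminin chains Lamb3 and Lama3 had 5 and 3 reads in all, and Lamc3 had 1. Itga11, a collagen receptor chain of fibroblasts, had 12, 3, 13 and 2 reads in WT replicates 1 and 2 and the KO-labelled libraries. It was the best covered of the chains under 40 reads, with 30 in all. Itga4, Itga8, Itga10 and Itga2b had 14, 8, 5 and 7 reads in all. The 14 chains under the limit had at most 14 reads in all, and with no limit on low levels, where 34 of the 37 chains were fitted, 0 chains had an adjusted p-value under 0.05 by limma and 2, Itgav and Itga2, an unadjusted one.

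Lama1, the laminin alpha chain of the early embryo (ENSMUSG00000032796, chr17:67697259-67822647, plus strand), stood apart from every other chain. It had an RPKM of 192 and 1068 in WT and of 43.5 and 263 in the KO-labelled libraries, from 1122, 4871, 382 and 2055 reads. WT replicate 2 was the highest and KO replicate 1 the lowest, 24.5 times apart, and KO replicate 2 lay above WT replicate 1, so the groups overlapped. The means were 630 ± 619 and 153 ± 155 (SD, n = 2), and the log2 difference was -2.07 ± 1.14 (SE; 95% interval -4.88 to 0.75; adjusted p-value 0.692 by limma). It was -0.78 without KO replicate 1, -0.83 without WT replicate 2, -3.30 without WT replicate 1 and -3.35 without KO replicate 2. The replicates differed 5.56-fold in WT and 6.04-fold in the KO-labelled libraries, each time with replicate 2 above replicate 1. With the replicate number as a block, the unadjusted p-value of Lama1 was 0.00868 by limma and the adjusted one 0.541. Deviations of same-numbered libraries correlated at 0.0575 over all tested genes, so the numbers are not shown to pair the libraries.

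Lama1 alone took 43.7% (95% Wilson interval 41.8% to 45.6%) and 83.4% (82.5% to 84.4%) of the reads of all 37 chains in WT replicates 1 and 2. In the KO-labelled libraries it took 9.69% (8.81% to 10.7%) and 51.8% (50.3% to 53.4%). These intervals cover counting error only, and they are far narrower than the spread between libraries. Without Lama1, the chains took 0.537% and 0.444% of protein-coding reads in WT and 0.774% and 0.496% in the KO-labelled libraries, which overlapped. Of all gene-assigned reads they took 0.223% and 0.151% in WT and 0.506% and 0.294% in the KO-labelled libraries, which did not overlap.

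The genes whose values over the 4 libraries were most like those of Lama1 were mostly microRNA genes, a comparison chosen after the values were seen. Likeness was the distance between centred log2(RPKM + 1) values among 3578 genes with at least 100 reads. Of the 20 nearest genes, 14 were microRNA genes, a class that made up 2.18% of those compared, 4 were protein-coding (Gal, Rplp1, Nipsnap2 and Megf11) and 2 were mitochondrial tRNA genes. Gal, which encodes the neuropeptide galanin, was the nearest, with an RPKM of 29.5 and 194 in WT and 9.79 and 69.1 in the KO-labelled libraries. Among the chains Itgb5 was nearest to Lama1, at rank 383. The ratio of WT replicate 2 to KO replicate 1 was 24.5 for Lama1, had a median of 9.21 over microRNA genes and of 0.886 over protein-coding genes, and ranged from 0.299 to 1.72 over 14 other chains with at least 100 reads. Of 3357 protein-coding genes with that many reads, 2 had a ratio at least as large, Lama1 itself and Megf11. Exons of Lama1 overlap no other annotated gene. Transcripts of the chains were compared with annotated noncoding RNAs (microRNA, snoRNA, snRNA, rRNA, mitochondrial tRNA and a few further classes). The longest stretch that those of Lama1 share with any of them is 16 bases. Over the 37 chains that length ran from 15 (Itgb2) to 51 (Itga1), with 43 for Itga7, 45 for Itga2 and 47 for Itgb3, and whether small RNA reads were counted in these chains was not tested. What kind of fragment these reads are was not tested, since the table gives no positions within genes.

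**Figure D3:**
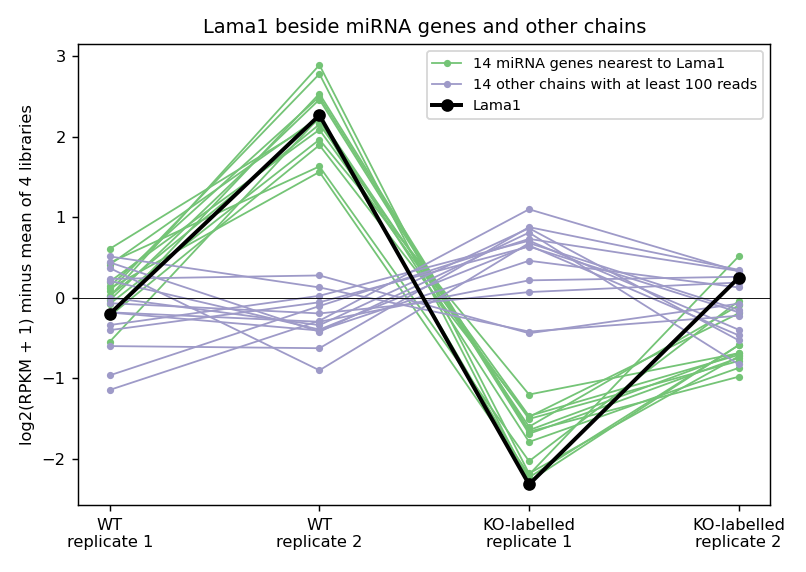
Centred log2(RPKM + 1) in the 4 libraries for Lama1 (black), the 14 microRNA genes among its 20 nearest genes (green) and the 14 other chains with at least 100 reads (violet), 1 line a gene. Lama1 and the microRNA genes are highest in WT replicate 2 and low in KO replicate 1, where most other chains are high. The genes in green were chosen for this likeness.

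Apart from Lama1, chains often shared a maximum in KO replicate 1. It was the highest library for 12 of 23 tested chains, against 24.3% of all genes, and both muscle chains and 6 of 8 ubiquitous chains were among them. WT replicate 2 was highest for 2 chains (Lama1 and Itgb5), against 24.5% of all genes. Fibroblast markers also had their highest summed RPKM, 772, in KO replicate 1, which had the highest share of protein-coding reads too, 65.4%. The part of either in the levels of the chains was not tested.

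Shares within a pool of like chains do not depend on how a library was scaled. Of the summed RPKM of 18 integrin alpha chains, Itga5 took the most, with 34.7% and 47.3% in WT and 37.5% and 36.6% in the KO-labelled libraries. That order holds per kilobase of exon. Per kilobase of coding sequence the level of Itgav exceeded that of Itga5 in both KO-labelled libraries (119.7 against 101.9 and 81.8 against 57.2). On that scale Itga7 exceeded Itga5 in WT replicate 1 (53.8 against 48.8). Itgav took 13.2% and 13.8% in WT and 20.1% and 23.8% in the KO-labelled libraries, and Itga2 took 3.87% and 8.44% against 11.6% and 11.4%. For both the groups did not overlap, with an exact permutation p-value (two-sided) of 0.33, the smallest that 2 against 2 libraries allow, so no share could pass a threshold of 0.05. Itga7 took 25.2% and 14.3% in WT and 17.1% and 8.87% in the KO-labelled libraries, and overlapped. Of the summed RPKM of 8 beta chains, Itgb1 took 59.0% and 72.5% in WT and 79.3% and 80.4% in the KO-labelled libraries, while Itgb5 took 17.8% and 12.3% against 4.38% and 7.76%. Neither beta chain overlapped between the groups.

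Lama1 took 84.5% and 98.1% of the laminin alpha pool in WT and 56.1% and 91.4% in the KO-labelled libraries, so the other alpha chains were compared without it. Lama2 then took 12.1% and 16.7% in WT and 21.2% and 22.3% in the KO-labelled libraries. Lama5 took 45.0% and 56.6% in WT and 23.01% and 36.8% in the KO-labelled libraries. Both separated the groups, in opposite directions, each with the smallest exact permutation p-value of 0.33. Lama4 took 42.5% and 26.7% in WT and 55.2% and 40.9% in the KO-labelled libraries, which overlapped. Lamc1 took 98.5% to 99.4% of the gamma pool in every library.

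**Figure D4:**
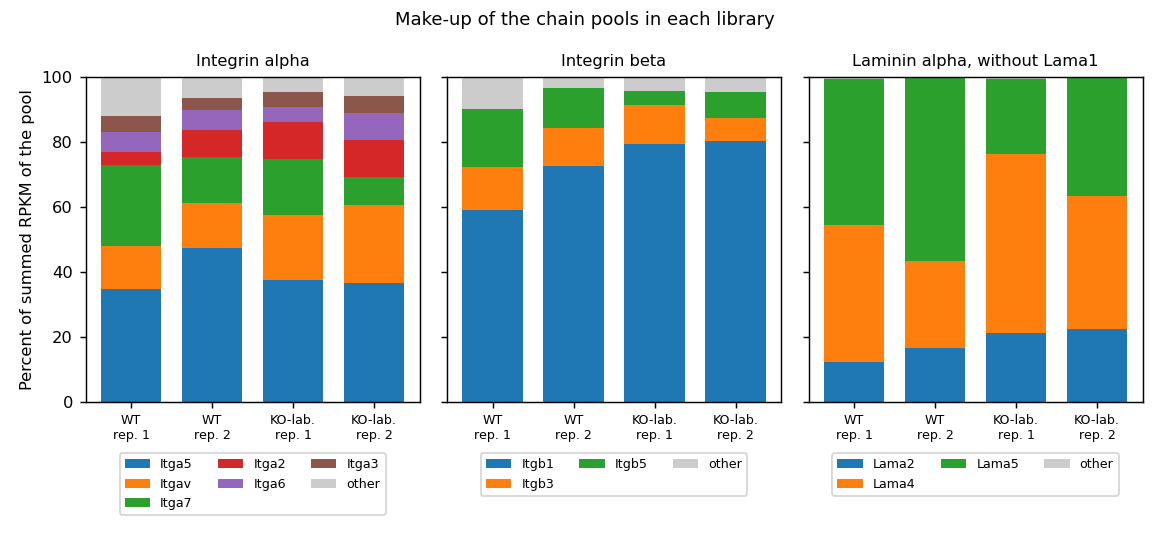
Make-up of 3 pools of chains in each library, as percent of the summed RPKM of the pool (18 integrin alpha, 8 integrin beta and 4 laminin alpha chains without Lama1). Each bar adds to the whole pool, and grey is all chains not named. The Itgb1 share is 59.0% to 72.5% in WT and 79.3% to 80.4% in the KO-labelled libraries, and the Lama5 share is larger in both WT libraries.

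Ratios of paired chains within a library, with 1 added to the RPKM of each chain, showed no separation of the groups. The added 1 draws the ratios of a low chain such as Lama2 toward 0. The log2 ratio of Itga7 to its partner Itgb1 was -1.04 and -2.77 in WT and -2.37 and -3.61 in the KO-labelled libraries, a mean difference of -1.08 (exact permutation p-value 0.667), which lay between -0.22 (without WT replicate 1) and -1.94 (without WT replicate 2) when a library was left out. For Lama2 to Lama4, muscle against vessel laminin, it was -1.60 and -0.56 in WT and -1.27 and -0.77 in the KO-labelled libraries. Lama2 to Lamc1, chains of the same trimer, gave -3.62 and -3.24 in WT and -3.42 and -2.63 in the KO-labelled libraries. The ratio of Lamb2 to Lamb1 was -0.27 and -0.06 in WT and -0.998 and 0.51 in the KO-labelled libraries. In each of these the ranges of the groups overlapped, with exact permutation p-values of 1.000, 0.667 and 1.000. With a library left out, the mean difference ranged from -0.46 to 0.58 for Lama2 to Lama4, from 0.014 to 0.80 for Lama2 to Lamc1 and from -0.83 to 0.68 for Lamb2 to Lamb1.

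Coding sequences of the 23 tested chains had a GC content from 42.6% (Itgb1) to 60.2% (Lama5), with a median of 54.8%, and the 9869 tested protein-coding genes with a coding sequence had a median of 53.2%. The chains with the largest increases, Itga2 (46.7%), Itgav (49.3%) and Itgb1, lay below that median. Over the 23 chains the Spearman correlation of GC content with the log2 difference was -0.31, over all those protein-coding genes it was -0.36, and without Lama1 it was -0.35 over 22 chains. These correlations run across genes measured in the same 4 libraries and are a description. With the trend on GC content and coding length removed, the log2 difference of Itgav was 1.08, of Itga2 1.24 and of Itgb1 0.79. In the same setting that of Lama5, the chain of highest GC content, went from -0.64 to -0.13, and that of Lamb2 (59.0%) from 0.26 to 0.65.

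A run of at least 3 prolines was present in 6 of 23 tested chains (26.1%) and in 25.8% of tested protein-coding genes. The 6 chains with a run had a median log2 difference of 0.49, and 17 chains without a run had 0.26. Over all protein-coding genes the medians were -0.13 with a run and 0.12 without. Lama2 (0.59), Itga3 (0.71), Lama4 (0.53) and Itga5 (0.46) were above 0, and Itgb4 (-0.12) and Lama5 (-0.64) below.

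**Figure D5:**
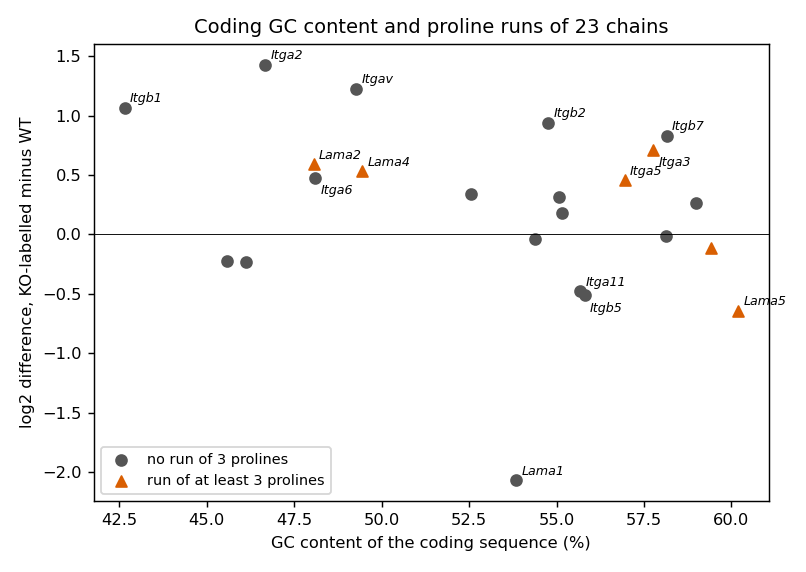
GC content of the coding sequence (percent) against the log2 difference, the KO-labelled libraries minus WT, for the 23 tested chains. Triangles mark the 6 chains with a run of at least 3 prolines, and they lie on both sides of 0, with Lama5 lowest at -0.64 and Itga3 highest at 0.71.

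Genes that act with the chains were taken from 2 lists. The first held 29 adhesion complex genes, which link integrins to actin or modify them in the membrane. Of 25 tested, 0 passed limma at an adjusted p-value under 0.05 and 0 had an unadjusted p-value under 0.05 in either direction. Voom gave 0 adjusted and 2 unadjusted calls (Cd9 higher, Tln2 lower), and the share of all genes under voom was not counted. In 6 the KO-labelled libraries were higher without overlap (such as Flna, Vcl and Fermt2), beside 20.1% of all genes, and in 10 lower (such as Ptk2, Src, Pxn and Tns1), beside 20.3% of all genes. The median log2 difference was -0.14. The tetraspanin Cd81, which associates with integrins, had an RPKM of 99.7 and 115 in WT and 195 and 192 in the KO-labelled libraries, and Cd9, another tetraspanin, had 65.7 and 252 in WT and 231 and 373 in the KO-labelled libraries. The actin crosslinker Actn4 had a log2 difference of 0.14 (adjusted p-value 0.934 by limma). The smallest p-values of the list belonged to Tln2, a talin that activates integrins (log2 difference -0.96, unadjusted p-value 0.090 by limma), and to the adaptor Pxn (log2 difference -0.74, unadjusted p-value 0.107). Fermt1 had no read.

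The second list held 21 laminin partners: basement membrane proteins, dystroglycan and its complex, and enzymes that add its laminin-binding sugars. Of 19 tested, 0 passed limma at an adjusted p-value under 0.05 and 0 had an unadjusted p-value under 0.05, by limma or by voom. Pomt1, Pomt2 and Sgcd were higher without overlap, Bcam, Nid2 and Sspn were lower, 3 genes each way beside 20.1% and 20.3% of all genes, and Pomt2 and Sgcd passed the limit on low levels only through the KO-labelled libraries. The median log2 difference was -0.22. The best covered were Hspg2 (perlecan), Col4a1 and Col4a2, with log2 differences of -0.44, -0.19 and -0.02 and adjusted p-values of 0.770, 0.908 and 0.990 by limma. Bcam, a receptor for Lama5, had an RPKM of 11.9 and 5.97 in WT and of 4.83 and 3.10 in the KO-labelled libraries. Its reads were 23 and 9 in WT and 14 and 8 in the KO-labelled libraries. The groups did not overlap in it, with a log2 difference of -0.96 and an adjusted p-value of 0.676 by limma. Sspn, a member of the dystrophin complex, had a log2 difference of -0.85 (adjusted p-value 0.690 by limma).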

How the data were processed

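Ribo-seq libraries of 2 WT and 2 KO-labelled samples were deposited as a table of RPKM, which the authors made by removing rRNA and tRNA reads, aligning with TopHat2 to mm10 (GRCm38) and counting per gene with HTSeq. How multi-mapping reads and strand were handled is not given in the sources used here. RPKM multiplied by gene length and divided by the smallest product of a library came out whole for 100.0% of values (tolerance 0.01 reads). The denominators this implied, 602863, 471136, 906990 and 807705, were median-of-ratios size factors times a common depth, so a change shared by most genes is hidden. A floor of 3 reads was an RPKM of 3.31 to 6.37 for a gene of 1 kb.

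The main test was limma 3.58.1 (R 4.3.3; lmFit, eBayes with trend) on log2(RPKM + 1) over 11363 genes (those whose mean RPKM reached 1), with Benjamini-Hochberg adjustment and a threshold of 0.05. A difference on this scale understates the change of low genes. The test was checked on simulated counts, where it recovered the direction of nearly all changed genes but passed none of them after adjustment. A lack of adjusted calls therefore does not show a lack of change. Apart from the changed genes, those counts had the same make-up in every library, which the libraries here do not. How reliable directions are in these data was therefore not tested. Single values were compared by exact two-sided permutation (SciPy 1.17.1). Coding sequences were those of GENCODE vM21. Chains with at least 40 reads, and Itga7 and Lama2, were described in every library. From each partner list the 3 genes with the most reads and the 2 with the smallest p-values were given, and further names there were chosen after their values were seen. The members and lists were chosen with earlier results of these data known.

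Alternatives were another pseudocount (0.1), no filter, a mean RPKM of at least 5, protein-coding genes alone, no variance trend, scaling to total reads, voom on recovered reads, removal of the GC and length trend, a replicate block, and leaving out each library. Chosen after seeing the data was leaving out Lama1. A few items, among them 1 sequence, are not reported here.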

Additional observations from a re-analysis of the deposited data

How the results depend on the processing

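No chain passed an adjusted p-value of 0.05 in limma or voom under any of 14 fitted alternatives, where adjusted p-values of 20 described chains ranged from 0.190 to 0.996. Of 276 values, 23 changed sign, and 10 of the 20 chains kept theirs throughout. Chains with an unadjusted p-value under 0.05 numbered 2 in the main design, 6 with scaling to total reads (Itgb1, Itgav, Itga2, Itga6, Itga3 and Lama2), 4 with voom (Lama1, Itgb1, Itgav and Itga2), 3 with the GC and length trend removed (Itga2, Itga3 and Itgav), 4 with the replicate block in addition (these and Lama1), and 0 to 2 when a library was left out (0 without WT replicate 1, 2 without WT replicate 2, Itgb1 and Itgb2, 1 without KO replicate 1, Itgb2, and 1 without KO replicate 2, Itgav). The replicate block alone gave 3 (Itgav, Itga2 and Lama1) and changed no other call. The share of all genes under 0.05 was counted in the main design alone, so the counts of the alternatives have no background beside them. Deviations of same-numbered libraries correlated at 0.0575, so the numbers are not shown to pair them. The median log2 difference of the chains was 0.89 with scaling to total reads, where that of all genes was 0.47, and 0.049 to 0.75 with a library left out (0.75 without KO replicate 2, 0.049 without KO replicate 1), and 0.32 without Lama1. Sign changes with scaling to total reads gave Itga7 0.56, Itgb5 0.055, Itgb4 0.31, Itga9 0.37, Itgb8 0.12 and Itga1 0.11. With the GC and length trend removed, alone or with the replicate block, they gave Itga7 0.29, Itgb4 0.30 and Itga9 0.036. With 1 library left out, which assumes that the lone library varies like the other group, ranges crossing 0 were -0.84 to 0.80 for Itga7, -0.24 to 0.17 for Itga9, -0.74 to 0.29 for Itgb8, -0.51 to 0.045 for Itga1, -0.37 to 0.74 for Lamc1, -0.10 to 1.17 for Lama4, -0.36 to 1.03 for Lamb1 and -0.24 to 0.87 for Itgb3. The causes were not tested. With a mean RPKM of at least 5, chains below that level had no value. Depth limits the low chains: the median tested gene had 54 reads.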
